A study of Mus musculus with 2 samples.

Results

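The miR-181 family of the mouse consists of 6 microRNA (miRNA) genes that lie as 3 neighbouring pairs: Mir181a-1 with Mir181b-1, Mir181a-2 with Mir181b-2, and Mir181c with Mir181d. The members were chosen by gene name in the GENCODE M21 annotation, which gave 6 of the 2202 miRNA genes counted in each table. The tissue was the adrenal gland, taken from adult 5xFAD/CAST females of 8 to 10 months, and small RNA was sequenced. As background, 5xFAD is a transgenic model of Alzheimer's disease whose transgenes are driven by the neuron-directed Thy1 promoter, and CAST is a strain inbred from wild mice of the castaneus subspecies. The labels do not say whether a given animal carried the transgenes, and they list no wild-type or untreated group. There are 2 libraries, biological replicates 2 and 1 of a single group, from separate biosamples with 1 shared donor identifier. The labels thus do not show that the libraries came from separate animals, and the spread between them may be technical.

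A miRNA gene is transcribed into a hairpin, from which Drosha and Dicer release a 5p and a 3p arm. The arm loaded into Argonaute finds messenger RNAs mainly through its seed, bases 2 to 8, so miRNAs with 1 seed can share targets. miR-181a is best known from thymocytes, where it raises the sensitivity of the T cell receptor by lowering several phosphatases, and the family is also expressed in brain and in other tissues.

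The mature arms show what the members share. Sequences are from RefSeq (GRCm38.p6), written 5′ to 3′ in lower case with the seed in capitals. All 12 arms of the 6 members were found there. The 5p arms are shown first.
miR-181a-5p (Mir181a-1 and Mir181a-2): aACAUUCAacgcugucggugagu
miR-181b-5p (Mir181b-1 and Mir181b-2): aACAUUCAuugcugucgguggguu
miR-181c-5p: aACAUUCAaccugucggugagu
miR-181d-5p: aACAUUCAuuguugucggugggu

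The seed ACAUUCA stood in the 5p arm of all 6 members and in no other gene of the RefSeq miRNA table used here. Counted from the 5′ end, miR-181b-5p and miR-181d-5p differed over the compared 23 bases by the substitution C12U alone. miR-181a-5p and miR-181b-5p differed by A9U, C10U and A21G. miR-181c-5p, with 22 bases, equals the 23-base miR-181a-5p except for 1 base that it lacks after their 10 identical first bases. The 3p arms, which leave the other side of the hairpin, were less alike.
miR-181a-1-3p: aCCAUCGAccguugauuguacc
miR-181a-2-3p: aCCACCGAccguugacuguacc
miR-181c-3p: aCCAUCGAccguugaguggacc
miR-181b-1-3p: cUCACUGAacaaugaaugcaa
miR-181b-2-3p: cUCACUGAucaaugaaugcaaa
miR-181d-3p: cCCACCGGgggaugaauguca

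The 3p arms of the miR-181a copies differed by U5C and U16C, of which the first lies in the seed, so these 2 copies have different 3p seeds. The 3p arms of the miR-181b copies differed by A9U, with the same seed. The 3p arm of Mir181a-1 differed from that of Mir181c by U16G and U19G and shared its seed CCAUCGA.

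The copies of miR-181a and of miR-181b at the first and second locus give identical 5p arms. In the hairpins below, the capitals mark the longest stretch that is identical in the other copy.
Mir181a-1: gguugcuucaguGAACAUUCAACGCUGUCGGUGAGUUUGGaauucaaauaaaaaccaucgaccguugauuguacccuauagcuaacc
Mir181a-2: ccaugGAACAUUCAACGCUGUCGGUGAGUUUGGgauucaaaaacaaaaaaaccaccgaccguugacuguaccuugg
Mir181b-1: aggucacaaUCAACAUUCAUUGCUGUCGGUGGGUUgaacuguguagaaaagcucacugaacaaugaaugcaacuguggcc
Mir181b-2: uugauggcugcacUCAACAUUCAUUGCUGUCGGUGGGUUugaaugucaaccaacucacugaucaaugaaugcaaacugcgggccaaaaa

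The identical stretch spans 28 bases in the miR-181a copies, from 1 base before the 5p arm to 4 bases after it. In the miR-181b copies it spans 26 bases, from 2 bases before the 5p arm to its last base. Reads with several genomic matches were kept in a separate entry of the tables (replicate 2 33.6% and replicate 1 31.6% of its reads) and assigned to no gene. A read that matches only bases of such a stretch fits both copies, so the counts of these 4 genes do not measure the abundance of miR-181a-5p or miR-181b-5p. They measure reads that the authors' processing placed at 1 locus, such as reads of the 3p arms or reads that reach past the stretch. The 4 arms of Mir181c and Mir181d occur in no other counted miRNA gene. Of the 20-base windows of the hairpins, 9 of 68 in Mir181a-1, 9 of 57 in Mir181a-2, 7 of 61 in Mir181b-1 and 7 of 70 in Mir181b-2 occur in another counted miRNA gene, against 0 of 53 in Mir181d. No such count was made for Mir181c, since a hairpin was found for only 5 of the 6 members. Matches elsewhere in the genome were not searched, since no genome sequence was used here.

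**Figure D1:**
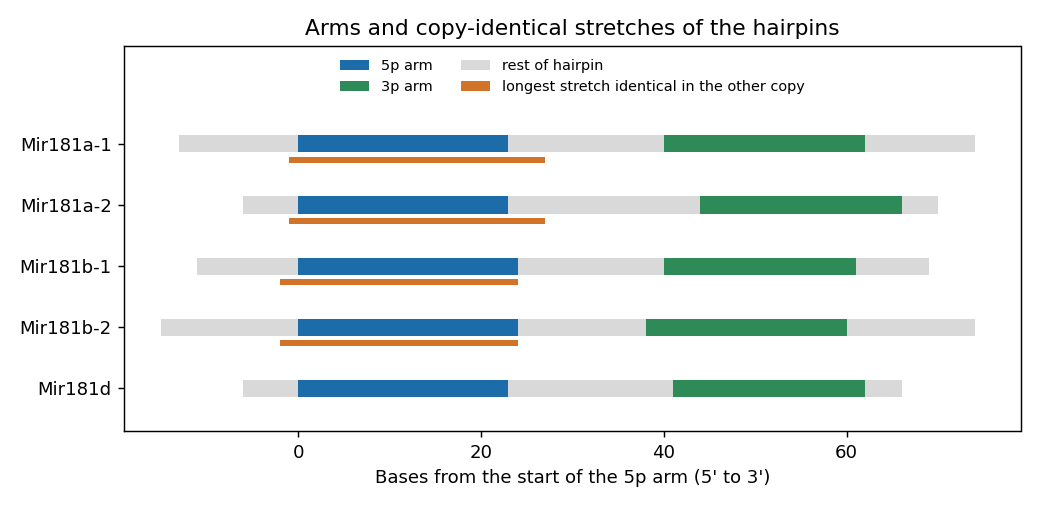
Hairpins of 5 miR-181 genes, drawn to scale in bases from the start of the 5p arm, with the 5p arm, the 3p arm and, under each copy, the longest stretch identical in the other copy. The identical stretch covers the whole 5p arm in Mir181a-1, Mir181a-2, Mir181b-1 and Mir181b-2 and no part of a 3p arm. Mir181c is not drawn, since no hairpin was found for it.

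The first locus lies on the plus strand of chromosome 1 (build mm10, as are all coordinates here). Mir181a-1 (ENSMUSG00000065565.1) occupies 137966455 to 137966541 and Mir181b-1 (ENSMUSG00000065458.1) 137966639 to 137966718, with 97 bases between them. Both lie in an intron of the noncoding gene Gm4258 on their own strand and opposite to an intron of the lincRNA Gm26936. All 80 bases of Mir181b-1, and 11 of the 87 bases of Mir181a-1, are exonic in the lincRNA A430106G13Rik. The second locus is on the plus strand of chromosome 2. Mir181a-2 (ENSMUSG00000065423.1) occupies 38852735 to 38852810 and Mir181b-2 (ENSMUSG00000065578.1) 38853830 to 38853918, with 1019 bases between them. Both lie opposite to an intron of Nr6a1, an orphan nuclear receptor gene. All 89 bases of Mir181b-2 also lie opposite to an exon of the annotated gene Gm44144. The third locus is on the minus strand of chromosome 8. Mir181c (ENSMUSG00000065483.2) occupies 84178873 to 84178961 and Mir181d (ENSMUSG00000076338.1) 84178716 to 84178787, with 85 bases between them, in an intron of Nanos3, a germ cell gene.

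The unit of level is CPM, a gene's reads per 1000000 reads on miRNA genes, taken from the column of the tables that counts 1 strand. That column held 6924829 such reads in replicate 2 and 3635851 in replicate 1. Intervals cover the counting error of reads only. Without molecular identifiers several PCR reads can stem from 1 molecule, which the intervals do not take into account.

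Mir181c, which gives miR-181c, was the highest member, and its neighbour Mir181d was next. Mir181c had 4495 reads in replicate 2 and 3128 in replicate 1, or 649 CPM (exact Clopper-Pearson 95% interval 630.3 to 668.4) and 860.3 CPM (830.4 to 891.0). Its mean was 755 ± 149 CPM (SD, n = 2), rank 88 of the 2202 genes. Mir181d had 3375 reads in replicate 2 and 2000 in replicate 1, or 487 and 550.1 CPM, with a mean of 519 ± 44.3 CPM (SD, n = 2) at rank 105. Both genes were lower in replicate 2.

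Mir181b-2, 1 of the genes for miR-181b, had 1192 reads in replicate 2 and 617 in replicate 1, or 172 and 169.7 CPM. Its mean was 171 ± 1.72 CPM (SD, n = 2), rank 154. Mir181a-1, 1 of the genes for miR-181a, had 242 reads in replicate 2 and 168 in replicate 1, or 34.9 and 46.2 CPM. Its mean was 40.6 ± 7.96 CPM (SD, n = 2), rank 229.

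The other copies were near the low end of the detected genes. Mir181a-2 had 60 reads in replicate 2 and 47 in replicate 1, or 8.66 CPM (interval 6.61 to 11.2) and 12.9 CPM (9.50 to 17.2). Its mean was 10.8 ± 3.01 CPM (SD, n = 2), rank 285. Mir181b-1 had 21 reads in replicate 2 and 11 in replicate 1, or 3.03 CPM (interval 1.88 to 4.64) in replicate 2 and 3.03 CPM (1.51 to 5.41) in replicate 1. Its mean was 3.03 ± 0.00505 CPM (SD, n = 2), rank 351. With so few reads, the counting intervals of Mir181b-1 are far wider than the difference between its 2 values.

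All 6 members had at least 10 reads in each library, as did 16.2% of all 2202 miRNA genes. In the order Mir181c, Mir181d, Mir181b-2, Mir181a-1, Mir181a-2, Mir181b-1, the values of the 2 libraries did not overlap between any of the 5 neighbours. Since the order was set by the means of these same libraries, this is no independent support for it. The share of such steps among all genes was not determined. The narrowest step was between Mir181c and Mir181d, a ratio of means of 1.45. The other steps ranged from 3.03 between Mir181d and Mir181b-2 to 4.21 between Mir181b-2 and Mir181a-1. Together the family took 0.136% of miRNA-gene reads in replicate 2 (interval 0.133 to 0.138%) and 0.164% in replicate 1 (0.160 to 0.168%). Reads that fit both copies of miR-181a or of miR-181b are missing from these shares, so they do not give the abundance of the family. For the 4 copies this order is one of reads placed at a single locus, and ligation bias also touches any comparison between miRNAs.

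**Figure D2:**
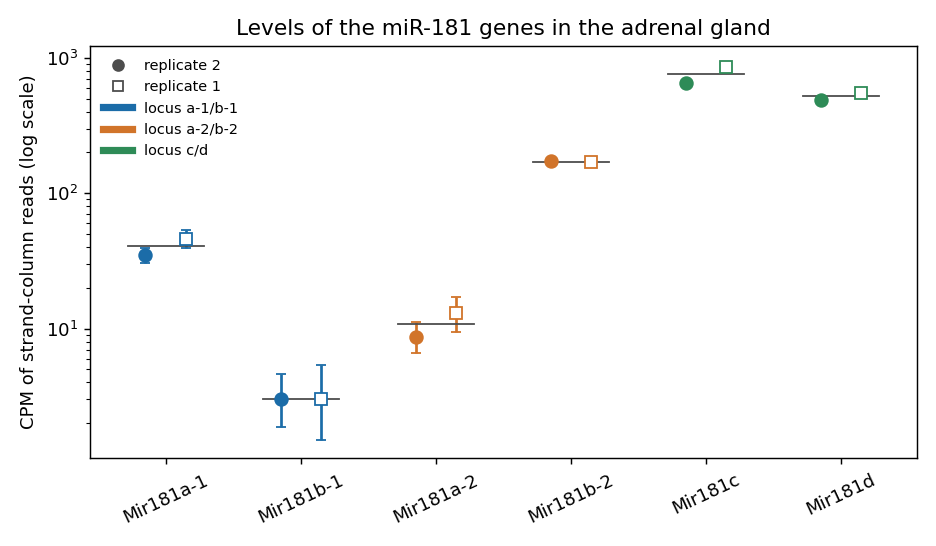
CPM of each miR-181 gene on a log axis, replicate 2 as filled circles left of replicate 1 as open squares, with exact 95% counting intervals as bars and the mean as a line, coloured by locus. The values run from 3.03 CPM at Mir181b-1 to 860.3 CPM at Mir181c, and the genes of the first and second locus stand far apart within each pair.

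The both-strand column, read as a check, gave the same read numbers for every member except Mir181a-2 in replicate 2, which had 61 reads there. The remaining read of Mir181a-2 stood in the column of the opposite strand, where every other member had 0 reads in both libraries. None of the 6 genes overlaps a miRNA gene on the other strand.

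The locus of Mir181c and Mir181d held most of the family's reads. It took 83.9% of them in replicate 2 (interval 83.1 to 84.6%) and 85.9% in replicate 1 (84.97 to 86.8%), or 84.9% ± 1.43 (SD, n = 2). The locus of Mir181a-2 and Mir181b-2 took 13.3% in replicate 2 and 11.1% in replicate 1. The locus of Mir181a-1 and Mir181b-1 took 2.80% in replicate 2 and 2.998% in replicate 1. The order of the loci was the same in both libraries. In CPM the sums were 1136 and 1410.4 for the third locus, 180.8 and 182.6 for the second, and 38.0 and 49.2 for the first, each in replicate 2 and then replicate 1. These shares cannot be read as shares of mature miR-181, because exact 5p reads of the first and second locus were not assigned to genes.

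Within the pairs, the balance of the partners differed in direction between the first and second locus. Partners that are close together can come from 1 transcript. At the first and second locus, reads that fit both copies were not assigned, so ratios there do not measure mature miRNAs. At the first locus the upstream gene, Mir181a-1, had 11.5 times the reads of Mir181b-1 in replicate 2 and 15.3 times in replicate 1. It took 92.0% of the pair's reads in replicate 2 (interval 88.1 to 94.99%) and 93.9% in replicate 1 (89.3 to 96.9%). At the second locus the downstream gene, Mir181b-2, had 19.9 times the reads of Mir181a-2 in replicate 2 and 13.1 times in replicate 1. Mir181a-2 took 4.79% of that pair's reads in replicate 2 (interval 3.68 to 6.13%) and 7.08% in replicate 1 (5.25 to 9.30%). At the third locus the partners were within a factor of 2, and Mir181c took 57.1% in replicate 2 (interval 56.0 to 58.2%) and 61.0% in replicate 1 (59.6 to 62.3%).

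The change in partner balance between the libraries was tested with Fisher's exact test over all pairs of consecutive same-strand miRNA genes with starts within 10 kb and at least 10 reads per gene over both libraries. This test needs no scaling of the libraries. Of 102 such pairs, 61 were called at an adjusted p under 0.05, which is 59.8%, and 1 of the 3 miR-181 pairs was among them. Mir181c relative to Mir181d was lower in replicate 2, with a log2 difference in balance of -0.23 (adjusted p = 2.39e-05). Mir181a-2 relative to Mir181b-2 had a difference of -0.60 (adjusted p = 0.0708) and Mir181a-1 relative to Mir181b-1 one of -0.38 (adjusted p = 0.645), neither called. The absolute log2 balance, averaged over the libraries, was 0.53 for the third locus, 3.68 for the first and 4.00 for the second, against a median of 2.79 over the 102 pairs. From the most even to the most uneven pair these were places 13, 64 and 66. These places set unlike counts side by side, since reads that fit both copies are missing at the first and second locus. They therefore do not rank the output of the partners.

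The copies also differed in direction. Mir181a-1 had 4.03 times the reads of Mir181a-2 in replicate 2 and 3.57 times in replicate 1. It took 80.1% of the reads on the 2 miR-181a genes in replicate 2 (interval 75.2 to 84.5%) and 78.1% in replicate 1 (72.0 to 83.5%). For miR-181b it was the copy on chromosome 2 that had more reads. Mir181b-2 had 56.8 times the reads of Mir181b-1 in replicate 2 and 56.1 times in replicate 1. Mir181b-1 took 1.73% of the reads on the miR-181b genes in replicate 2 (interval 1.07 to 2.63%) and 1.75% in replicate 1 (0.878 to 3.11%). So the copy with more reads lay on chromosome 1 for miR-181a and on chromosome 2 for miR-181b.

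Across the genome, 22 pairs of miRNA genes whose names end in -1 and -2 on a shared stem had at least 10 reads per gene. The miR-181b pair was the most uneven of the 22, with a mean log2 balance of 5.77 in absolute value. Next were Mir92-1 and Mir92-2 with 4.43 and Mir26a-1 and Mir26a-2 with 4.26. The first place rests on 21 reads of Mir181b-1 in replicate 2 and 11 in replicate 1. Without the reads that fit both copies, it is not a measure of the copies' expression. The miR-181a pair stood at 1.91, place 12 from the most even, near the median of 1.84. Between the libraries, 10 of the 22 copy pairs, or 45.5%, changed their balance by Fisher's exact test with Benjamini-Hochberg adjustment over the 22, and neither miR-181 pair was called. The differences, replicate 2 minus replicate 1, were 0.18 for miR-181a (adjusted p = 0.642) and -0.05 for miR-181b (adjusted p = 1).

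**Figure D3:**
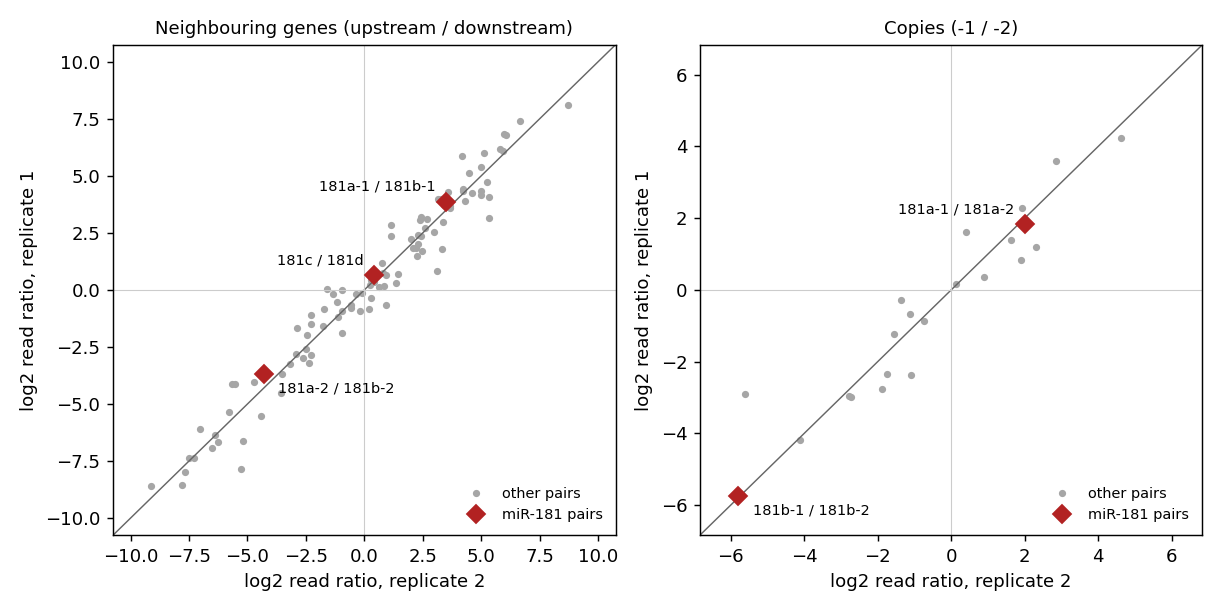
Log2 read ratio within pairs, replicate 2 on the horizontal and replicate 1 on the vertical axis, for 102 neighbouring pairs (left, upstream over downstream gene) and 22 copy pairs (right, copy 1 over copy 2), with equality of the libraries as a diagonal. The largest difference between the libraries among the miR-181 pairs was -0.60. The median absolute difference was 0.52 over the left and 0.41 over the right pairs. The miR-181 pairs lie on opposite sides of 0 for the first and second locus and for miR-181a and miR-181b. The miR-181b copies stand at the lower end.

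The libraries were then compared gene by gene. The test was Fisher's exact test, two-sided, with Benjamini-Hochberg adjustment over the 455 genes that had at least 10 reads in both libraries together. Its error is that of counting, so a call says that these 2 libraries differ and says nothing of a condition. It called 239 genes, or 52.5%, and 3 of the 6 miR-181 genes. Lower in replicate 2 were 35.6% of the tested genes and 3 members, and higher were 16.9% of the tested genes and 0 members. Mir181c was at 0.755 times its replicate 1 level in replicate 2 (exact interval 0.721 to 0.790), and its log2 ratio was -0.41 (Fisher's exact test, adjusted p = 2.35e-32). Mir181a-1 was at 0.756 times (0.619 to 0.926), with a log2 ratio of -0.40 and an adjusted p of 0.0123. Mir181d was at 0.886 times (0.838 to 0.937), with a log2 ratio of -0.17 and an adjusted p of 5.41e-05.

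Mir181a-2 was at 0.670 times (interval 0.450 to 1.004) and was not called (Fisher's exact test, adjusted p = 0.0737). Mir181b-2 was at 1.01 times (0.920 to 1.12) and Mir181b-1 at 1.00 times (0.462 to 2.30), and neither was called. For Mir181b-1 a change within that interval was not detectable at this depth. The median log2 ratio was -0.29 over the 6 members and -0.18 over all 455 tested genes.

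The direction depended on scaling. TMM normalization moved the log2 ratio of all tested genes by 0.20, to a median of 0.02, and split the 240 genes then called into 124 higher and 116 lower in replicate 2, against 77 higher and 162 lower with plain totals. Relative to that shift Mir181c stood at -0.21 (adjusted p = 3.1e-09, exact binomial test) and remained lower. Mir181b-2 then stood at 0.22 and was called higher in replicate 2 (adjusted p = 0.00466, exact binomial test). Mir181d turned to 0.02 and Mir181b-1 to 0.17, and neither these genes nor Mir181a-1, at -0.20, were called.

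The differences lay within the range of the other genes. A larger absolute log2 ratio than that of Mir181c was found in 54.5% of the 455 tested genes, and larger than that of Mir181a-2, the most extreme member, in 41.1%. The coefficient of variation between the libraries was 31.2% (square root of edgeR's common dispersion over 356 genes). With that dispersion in edgeR's exact test, 5 of the 455 genes, or 1.1%, were called after Benjamini-Hochberg adjustment and 26 had an unadjusted p under 0.05. None of the 6 members was called by it (adjusted p = 1 for each), and their unadjusted p ran from 0.422 for Mir181a-2 to 1.00 for Mir181b-1 in that exact test. That dispersion comes from the same 2 libraries.

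**Figure D4:**
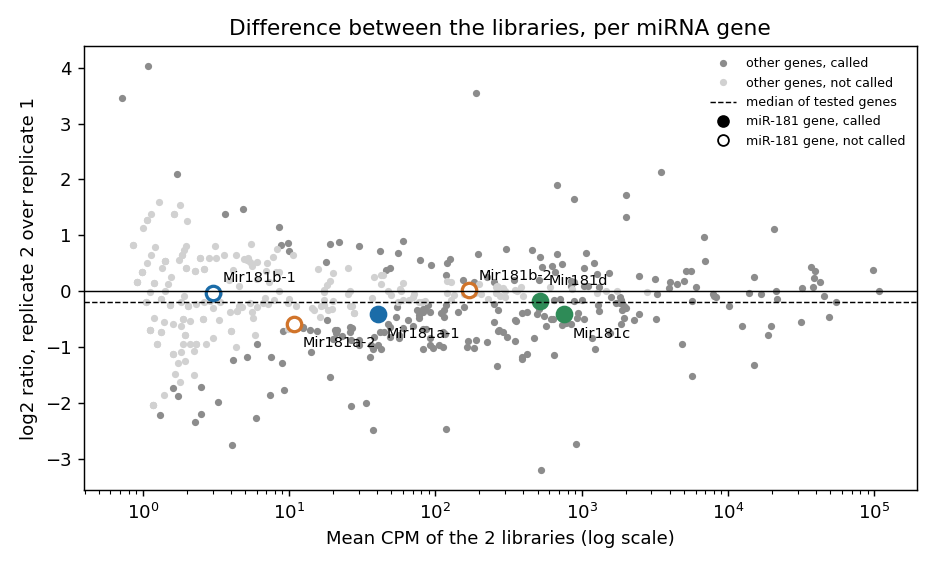
Log2 ratio of replicate 2 over replicate 1 (vertical) against the mean CPM on a log axis (horizontal) for 455 miRNA genes, with the 6 miR-181 genes labelled and filled where Fisher's exact test called them. The dashed line is the median of the tested genes at -0.18, and the members lie between -0.58 and 0.02, inside the cloud of the other genes.

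In level, the members stood among the following genes by Euclidean distance of log2(CPM + 1) over the 2 libraries. Nearest to Mir181c were Mir182 at 779 ± 212 CPM (SD, n = 2), Mir214 at 731 ± 212 CPM and Mir501 at 709 ± 48.8 CPM. Nearest to Mir181b-2 were Mir421, Mir125b-2 and Mir700, at 183 ± 15.1, 186 ± 1.94 and 156 ± 3.08 CPM. Nearest to Mir181a-1 were Mir467c, Mir539 and Mir410, at 41.7 ± 14.5, 44.5 ± 15.3 and 36.8 ± 2.02 CPM. With 2 libraries this measure reflects level more than pattern.

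Other miRNAs give the setting. Of the adrenal neuroendocrine list, 4 of 4 genes were detected, with a sum of 48363 CPM in replicate 2 and 50709 CPM in replicate 1. It was led by Mir375, a miRNA of endocrine cells, at 45225 ± 1738 CPM and Mir7b at 3967 ± 107 CPM (SD, n = 2). Detection of these genes does not establish the tissue. The liver marker Mir122 stood at 93.3 ± 21.5 CPM and the kidney marker Mir192 at 23.0 ± 8.77 CPM (SD, n = 2). Both striated muscle markers were at 0, but both share a stretch of 20 bases with another counted miRNA gene, so this sets no limit on the mature miRNAs. In bulk tissue, fewer cells of a type and less RNA per cell cannot be told apart.

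Lymphocyte and myeloid miRNAs summed to 2259 CPM in replicate 2 and 2282 CPM in replicate 1, with 5 of 6 genes detected. They were led by Mir146, which dampens innate immune signalling, at 1269 ± 192 CPM and by Mir150, a miRNA of mature lymphocytes, at 498 ± 97.2 CPM (SD, n = 2). By Fisher's exact test 1 of the 5 tested genes was higher and 4 were lower in replicate 2, where 16.9% of all tested genes were higher and 35.6% lower. The higher gene was Mir146, at 1405 CPM in replicate 2 and 1134 CPM in replicate 1. The near-equal sums thus hold opposite changes. With TMM normalization the genes called among all 455 tested were split into 124 higher and 116 lower. The split within the lists of this paragraph was not counted under that scaling. Of 6 miRNAs described with miR-181 in T cells, which include 4 of that list, 1 was higher and 4 were lower of 5 tested, with Mir17 at 1296 ± 150 CPM. Endothelial Mir126a was lower, at 41532 CPM in replicate 2 and 56684 CPM in replicate 1.

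As a ratio of sums, the neuronal list differed most among these lists, at 820.4 CPM in replicate 2 and 2532 CPM in replicate 1. By Fisher's exact test 2 of its 6 tested genes were higher and 4 were lower in replicate 2, where 16.9% of all tested genes were higher and 35.6% lower. By the mean of the libraries the list was led by Mir129-2, at 242 CPM in replicate 2 and 1593 CPM in replicate 1. Mir137 was next by the mean, at 470 CPM in replicate 2, where it stood above Mir129-2, and 640 CPM in replicate 1. The genes called higher were Mir128-1, at 52.4 CPM in replicate 2 and 31.6 CPM in replicate 1, and Mir128-2. The latter was at 7.22 CPM (50 reads) in replicate 2 and 2.48 CPM (9 reads) in replicate 1. Of the 12 listed genes 4 had no read in either library, and all 4 share a stretch of 20 bases with another counted miRNA gene, so their 0 sets no limit on the mature miRNA. In all, 10 of the 12 share such a stretch, Mir129-2, Mir128-1 and Mir128-2 among them. So do 2 of the 6 lymphocyte and myeloid genes, 3 of the 6 described with miR-181 and 2 of the 4 neuroendocrine genes. Reads that fit more than 1 gene can thus be missing from the counts of these genes and from the sums of the lists.

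Markers of other cells moved in both directions between the libraries, where the median log2 ratio of all tested genes was -0.18. Red cell markers summed to 175 CPM in replicate 2 and 427 CPM in replicate 1, and smooth muscle markers to 21489 CPM in replicate 2 and 23925 CPM in replicate 1. Mir142, a miRNA of blood cells, was at 117 CPM in replicate 2 and 216 CPM in replicate 1, and the kidney marker Mir192 at 16.8 CPM in replicate 2 and 29.2 CPM in replicate 1. The liver marker Mir122 was higher, at 108 CPM in replicate 2 and 78.1 CPM in replicate 1. The part of these cell types in the differences of the miR-181 genes was not tested.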

How the data were processed

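For each library the authors deposited a table of raw read counts on 2202 miRNA genes, in 3 columns without names. The deposited notes give mm10 as the build and M21 as the annotation. The aligner, like the counting program and the trimming, is not given in the sources used here. From the values, the first count column holds reads of both strands and the others 1 strand each. The strand column that holds most gene reads, taken as the genes' own strand, was used, since the both-strand column drops reads over overlapping opposite-strand genes. Entries that name no gene were left out of totals. They held 16.5% unmapped, 33.6% multimapping and 5.0% reads outside miRNA genes in replicate 2, and 16.1%, 31.6% and 5.6% in replicate 1.

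Depth on miRNA genes was 6924829 reads in replicate 2 and 3635851 in replicate 1, and a count of 0 allows 0.433 and 0.825 CPM (3 counts). Log2 ratios used an offset of 0.5 counts. Fisher's exact tests were adjusted by Benjamini-Hochberg over all genes or pairs tested, at 0.05. The test per gene was also run on simulated reads with counting error only. That run lacked the further spread between real libraries and did not measure false calls. Members, lists and tests were chosen with earlier results of these data known. Genes named are the 6 members, the 3 genes nearest in level to the leading member of each locus, and up to 2 of the most abundant genes per list, while other genes (Mir92-1, Mir26a-1, their copies, Mir128-1 and Mir128-2) were named after their values were seen. Gene hairpins for the window search came from the GENCODE M21 transcripts. Python 3.11.15 with scipy 1.17.1 and matplotlib 3.10.9 ran the tests, and R 4.3.3 ran edgeR 4.0.16 and DESeq2 1.42.0.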

Additional observations from a re-analysis of the deposited data

How the results depend on the processing

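With 1 library left out, a level is that of the other library, which is no check of stability, and the values were 34.9 to 46.2 CPM for Mir181a-1, 3.03 to 3.03 for Mir181b-1, 8.66 to 12.9 for Mir181a-2, 169.7 to 172 for Mir181b-2, 649 to 860.3 for Mir181c and 487 to 550.1 for Mir181d. The comparison of the libraries cannot be made without either of them. Scaled to all reads of a library, unassigned ones included, the levels were 18.7, 1.39, 4.97, 78.4, 347 and 238 in the same order of genes, by the larger total. In the both-strand column, whose total is smaller, all 6 were higher, at 46.4, 3.46, 12.4, 195, 862.2 and 592 CPM in that order. The shares of the loci and the calls of the miR-181 partner and copy pairs held under every alternative that gave a value (the second locus, with starts 1095 bases apart, has none under a limit of 1 kb), while the number of copy pairs called fell to 4 of 18 in the both-strand column (10 of 22 in the strand column). The number of genes called between the libraries fell to 5 with edgeR's exact test, and stayed within 1.5 times of 239 under the other alternatives. Log2 ratios changed sign for Mir181b-1 (0.17 with TMM and 0.16 with DESeq2 size factors), for Mir181d (0.0249 and 0.0131) and for Mir181b-2 (-0.00396 in the both-strand column). Windows of 18 and 22 bases gave the same 4 hairpins with shared sequence among the 5 hairpins found, which lack Mir181c. No paired analysis was possible because there is a single group of 2 libraries. Depth limits Mir181b-1 and Mir181a-2 most.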
